A study of Mus musculus with 12 samples.

Results

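Genes that take up, make, bind and break down retinoic acid were followed through the chromatin interactions of mouse embryonic stem cells (ESC) and of the neuronal committed cells (NCC) that these form under retinoic acid. There were 9 of them, Stra6, Rdh10, Dhrs3, Aldh1a2, Crabp1, Crabp2, Cyp26a1, Cyp26b1 and Cyp26c1, out of 21728 protein-coding genes on chromosomes 1 to 19 and X. They were chosen by name. In GRCm38 with GENCODE vM21, the gene bodies were Stra6 at chr9:58063788-58153996, Rdh10 at chr1:16105774-16133734, Dhrs3 at chr4:144892827-144928209, Aldh1a2 at chr9:71215789-71296243, Crabp1 at chr9:54764748-54773110, Crabp2 at chr3:87948666-87953376, Cyp26a1 at chr19:37697798-37701536, Cyp26b1 at chr6:84571414-84593908 and Cyp26c1 at chr19:37685581-37693398, with Cyp26b1 on the minus strand and the others on the plus strand. For each gene, all interactions were taken that had an anchor, the restriction fragments between which read pairs were counted, overlapping the gene body plus 10 kb on each side. Cyp26a1 and Cyp26c1, which lie next to each other, were taken as 1 locus, so that 8 loci were described. Each of the 8 loci had at least 1 anchor in 5 of the 6 tables, and Crabp2 had none in the CTCF HiChIP of NCC.

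Both groups were cells of the mouse ESC line E14Tg2A. ESC were kept with leukemia inhibitory factor (LIF, 100 U/mL), and NCC were the same line after 48 h with 1 μM retinoic acid in medium without LIF. Hi-C counts contacts between any DNA fragments, whereas HiChIP keeps the contacts pulled down with an antibody, here against FGFR1 or CTCF. The 2 biological replicates of each cell type and assay had been merged into 1 table, so there was 1 pooled library per group and no replicate error. All intervals below are 95% intervals that cover counting error only, PCR copies not being independent molecules, and every ratio compares pooled libraries rather than conditions. The NCC had received the agent that these genes act on, and no group with retinoic acid but without differentiation was compared, so that effects of the agent and of the new cell state cannot be told apart. The tables hold no expression, and the identity of the cells could not be checked on marker genes.

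Retinoic acid is made from vitamin A in steps. STRA6 is a membrane receptor through which retinol enters cells, RDH10 oxidizes retinol to retinal, DHRS3 turns retinal back into retinol, and ALDH1A2 makes retinoic acid from retinal in the embryo. CRABP1 and CRABP2 carry retinoic acid in the cytoplasm, and the CYP26 enzymes clear it by oxidation. Genes of the clearing arm are classic targets of the retinoic acid receptors, which sit with their RXR partners on direct repeats of a short half-site.

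Direct repeats were searched for in the gene windows because the cells had been treated with retinoic acid. A DR5 was a pair of half-sites on 1 strand spaced by 5 bases, as in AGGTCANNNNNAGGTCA, and a DR2 was the same with a spacing of 2 bases, as in AGGTCANNAGGTCA. The letters AGGTCA were allowed as a half-site, and so was the variant spelled GGGTCA, a further variant spelled AGTTCA and the last variant, which was spelled GGTTCA. Both strands were read. The sequences are from the GRCm38 genome, 5′ to 3′ on the strand given, with the half-sites in capitals and 6 bases of flank. Shown are the DR5 of the 2 CYP26 loci and Dhrs3 and the DR2 of Crabp2, which held no DR5, since these 4 loci had the highest Hi-C ratios of NCC over ESC.
Cyp26a1, DR5 near the start, chr19:37697770-37697798, minus strand: caaattAGTTCAcccaaAGTTCAtcttta
Cyp26a1, DR5 farther upstream, chr19:37695903-37695931, plus strand: ctgcagGGGTCAcaggcGGGTCAggctaa
Cyp26b1, DR5, chr6:84566628-84566656, plus strand: tcaggaAGGTCAgggtaAGGTCAtgccca
Dhrs3, DR5 in the gene body, chr4:144898369-144898397, plus strand: ccctctGGGTCAcagagAGGTCAgacagg
Crabp2, DR2 upstream of the start, chr3:87947519-87947544, plus strand: gtccccAGTTCAccAGGTCAgggctg

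The near DR5 of Cyp26a1 ended in front of the gene start, with its centre 0.014 kb upstream, and the other lay 1.88 kb upstream, between Cyp26c1 and Cyp26a1. A window of this length held 2 or more DR5 in 1.21% of all genes, and 0.0981% of 32619 RefSeq promoters (GRCm38.p6, 250 bases before to 50 after the start) held a DR5. The DR5 of Cyp26b1 lay 27.3 kb downstream of its start, past the end of the gene. That of Dhrs3 lay 5.56 kb into the gene. Windows as long as these held a DR5 in 15.2% and 19.5% of genes. Stra6 also held a DR5, 86.9 kb from its annotated start, as 34.7% of windows of its length did. A DR2 lay 1.13 kb upstream of Crabp2, and windows of that length held one in 25.7% of genes. A DR2 was also found at Cyp26a1/Cyp26c1 (1), Aldh1a2 (1) and Stra6 (3), where 35.5%, 69.3% and 22.2% of windows of those lengths held as many. No DR2 or DR5 was found at Rdh10 and Crabp1 with these letters. Of the promoters of the members, those of Rdh10 and Crabp2 were not used here. The consensus site of CTCF, of 12 bases, matched in none of the windows except that of Aldh1a2, 88.0 kb downstream of the gene start. Windows of that length held it in 51.3% of genes, and this match lay in no anchor of the 6 tables. These matches are letters in the sequence and do not show that a factor was bound.

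The Hi-C libraries comprised 20745652 (ESC) and 21228099 (NCC) read pairs. Those of FGFR1 HiChIP comprised 2662606 and 3203872, and those of CTCF HiChIP 1218098 and 1056437. Anchors had been called in each library on its own, and only 24.7% of the ESC anchors of Hi-C had the same borders in NCC, 18.5% in FGFR1 HiChIP and 16.1% in CTCF HiChIP. A sum over anchors therefore also moves with the length that was called as anchor, and this covered length is given with the ratios of NCC over ESC that passed the limit set below, and in Hi-C with all of them. Over all genes, the median log2 ratio of NCC over ESC was -0.01 in Hi-C, -0.12 in FGFR1 HiChIP and -0.01 in CTCF HiChIP. Read pairs were normalised to 1000000 read pairs of their library, and ratios are of these normalised values. A locus was counted as past the limit when one library was over 25% above the other, so that its ratio was higher or lower, and both libraries together held at least 50 read pairs.

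Levels were compared between loci per kb of window. In ESC Hi-C, Crabp2 was the highest with 2.66 normalised read pairs per kb (interval 2.52 to 2.81). Stra6 followed with 2.25 (2.19 to 2.31), Cyp26a1/Cyp26c1 with 1.98 (1.88 to 2.09), Cyp26b1 with 1.88 (1.79 to 1.97) and Crabp1 with 1.72 (1.62 to 1.83). Aldh1a2 with 0.865 (0.825 to 0.906), Rdh10 with 0.836 (0.780 to 0.895) and Dhrs3 with 0.550 (0.508 to 0.595) lay under the median of all genes, 1.11. In this order, the intervals of Cyp26a1/Cyp26c1 and Cyp26b1, of Cyp26b1 and Crabp1, and of Aldh1a2 and Rdh10 overlapped. The carriers, the clearing enzymes and Stra6 thus lay above the median gene, and the 3 genes of the retinol and retinal steps below it. Those above it exceeded from 69.8% (Crabp1) to 87.4% (Crabp2) of genes, and a split by step was not tested.

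In NCC Hi-C, Crabp2 was again the highest with 3.96 (3.79 to 4.13), which was above 97.7% of genes. Cyp26a1/Cyp26c1 had 3.27 (3.15 to 3.40), Cyp26b1 2.93 (2.81 to 3.04), Stra6 2.85 (2.78 to 2.92) and Crabp1 2.37 (2.25 to 2.50). Dhrs3, with 1.63 (1.56 to 1.70), now lay above the median of 1.12, whereas Aldh1a2 with 0.771 (0.734 to 0.809) and Rdh10 with 0.681 (0.631 to 0.733) stayed under it. The intervals of Cyp26b1 and Stra6 overlapped. In FGFR1 HiChIP, the highest level was that of Stra6 in ESC, 1.85, and that of Cyp26a1/Cyp26c1 in NCC, 2.09. In CTCF HiChIP, the same loci led, Stra6 with 2.15 in ESC and Cyp26a1/Cyp26c1 with 2.53 in NCC.

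**Figure D1:**
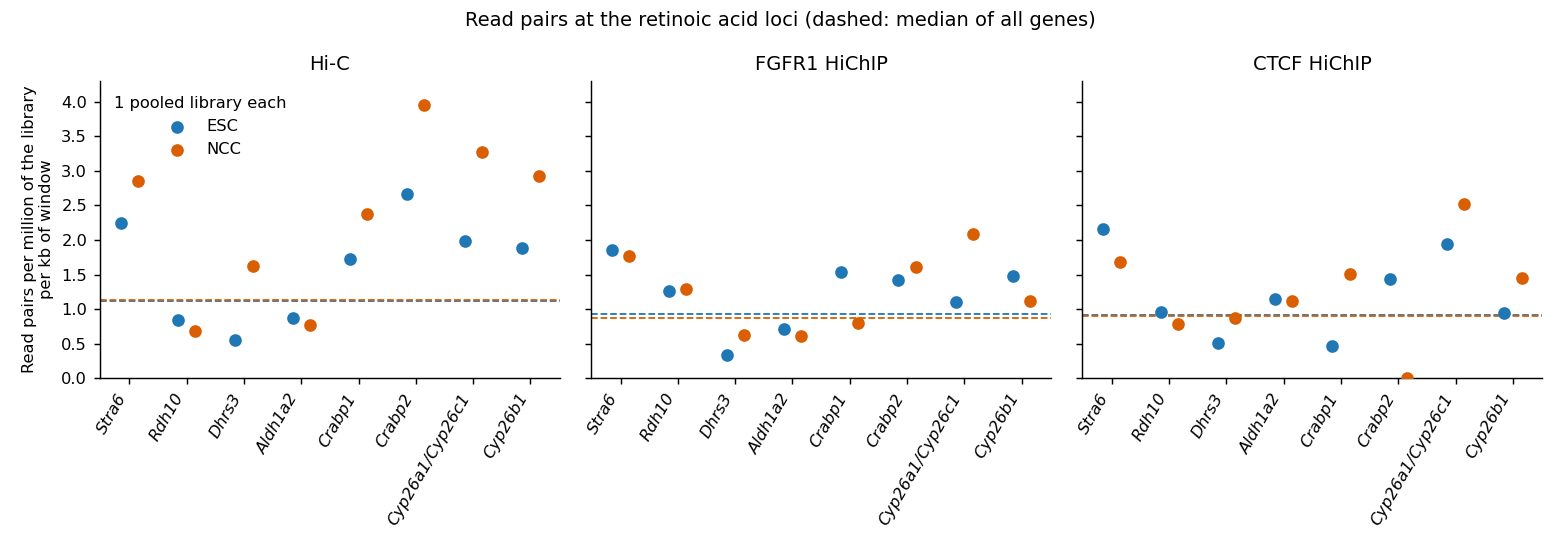
Normalised read pairs per kb of window (vertical axis) at the 8 loci in ESC (blue) and NCC (orange), in Hi-C, FGFR1 HiChIP and CTCF HiChIP, with 1 pooled library per point and the median of all genes as dashed lines. In Hi-C, Dhrs3 moved from 0.550 to 1.63, across the median, and Crabp2 had the highest level in both cell types.

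To ask how the surroundings of these genes changed between the cell types, NCC was set over ESC in Hi-C. Of the 8 loci, 6 were higher in NCC and 0 were lower, whereas 16.8% of all genes were higher and 19.4% lower. The median log2 ratio of the loci was 0.52. Dhrs3, the retinal reductase, stood out with 632 read pairs in ESC and 1914 in NCC, a ratio of 2.96 (2.70 to 3.24), above 98.1% of genes. All 3 CYP26 genes, both Crabp genes and Stra6 were higher as well, and Rdh10 and Aldh1a2 were not.

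The clearing enzymes came next in size. Cyp26a1/Cyp26c1 had 1478 read pairs in ESC and 2498 in NCC, a ratio of 1.65 (1.55 to 1.76). Cyp26b1 had 1659 and 2639, a ratio of 1.55 (1.46 to 1.65). These ratios were above those of 94.5% and 93.3% of genes.

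Of the carriers, Crabp2 had 1364 read pairs in ESC and 2075 in NCC, a ratio of 1.49 (1.39 to 1.59), and Crabp1 had 1015 and 1428, a ratio of 1.37 (1.27 to 1.49). Stra6, the retinol receptor, had 5142 and 6660, a ratio of 1.27 (1.22 to 1.31), just past the limit. Counted from its RefSeq start, which lies downstream of the GENCODE start, it had 2653 and 3386, a ratio of 1.247 (1.185 to 1.313). That ratio did not pass the limit. Rdh10, the retinol dehydrogenase, had 832 and 693, a ratio of 0.814 (0.735 to 0.901). Aldh1a2, the retinoic acid synthase, had 1802 and 1644, a ratio of 0.892 (0.833 to 0.954). Both of these were below 1 beyond counting error but did not pass the limit.

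The covered length moved with these ratios. At Dhrs3 it was 19.5 kb in ESC and 29.4 kb in NCC, and per covered kb the ratio was 1.96. At Cyp26a1/Cyp26c1 it was 20.8 and 27.8 kb with a ratio per covered kb of 1.23, at Cyp26b1 22.4 and 30.2 kb with 1.15, at Crabp2 14.2 and 19.1 kb with 1.11, and at Stra6 73.9 and 86.6 kb with 1.08. At Crabp1 the length hardly differed, 12.9 and 12.8 kb, and the ratio per covered kb was 1.39. Only length inside the window was counted as covered, whereas an anchor across its edge gave all its read pairs. At Crabp1, an anchor of 579 ends in NCC lay almost wholly outside the window. With ends spread evenly over their anchors, the ratio of Crabp1 was 1.09. At Rdh10 the length was 21.9 and 16.9 kb and at Aldh1a2 61.1 and 52.3 kb, and there the ratios per covered kb were 1.05 and 1.04. Anchor length and read pairs come from the same reads, and their parts in the ratio were not tested apart.

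Anchors with identical borders in both cell types give a comparison without this length. At Dhrs3, 1 such anchor of 4.13 kb, which holds the DR5, had 178 read ends in ESC and 324 in NCC, a ratio of 1.78 (1.48 to 2.15). Stra6 had 5 such anchors with 2299 and 3033 ends, a ratio of 1.29 (1.22 to 1.36). Crabp1 had 2 with 311 and 388 ends, a ratio of 1.22 (1.05 to 1.42). The single such anchors of Cyp26a1/Cyp26c1 (206 and 242 ends, 1.15, 0.949 to 1.39), Cyp26b1 (96 and 107, 1.09, 0.819 to 1.45) and Aldh1a2 (120 and 144, 1.17, 0.914 to 1.51) had intervals that included 1, and Rdh10 and Crabp2 had none. These anchors are few and lay away from the starts of Cyp26a1, Cyp26c1 and Cyp26b1.

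The way of counting decided part of the count of 6. Dhrs3 stayed past the limit in all 8 other ways of counting, from 1.78 to 3.57, and Cyp26b1 in 7 of 8. Crabp2 stayed past it in 6 of 7. Cyp26a1/Cyp26c1 (1.15 to 1.79) stayed past it in 4 of 8, Stra6 in 4 of 9 and Crabp1 in 3 of 8. With the gene bodies alone 3 loci were higher, beside 20.3% of genes, and with 25 kb on each side 2, beside 13.3%. With only those anchors whose midpoint lay in the window 3 were higher, beside 17% of genes. At Crabp1, an anchor of 579 ends in NCC reached into the window by its edge, and its midpoint lay 12.8 kb upstream of the gene start. Counted by midpoints, which leaves it out, the ratio was 1.03. At Cyp26a1/Cyp26c1, an anchor of 808 ends in NCC lay across the downstream edge, and by midpoints the ratio was 1.23.

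**Figure D2:**
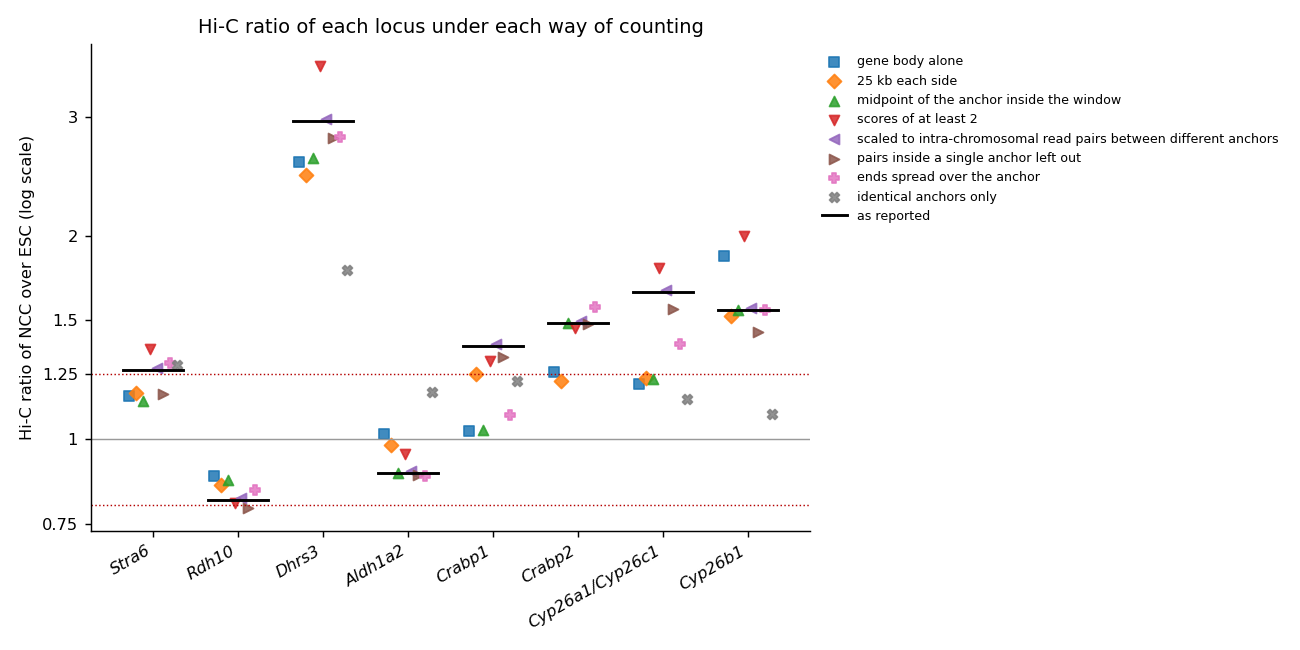
Hi-C ratio of NCC over ESC (vertical axis, log scale) for the 8 loci under each way of counting; the black line is the ratio as reported, the symbols are the alternatives, and the dotted lines mark the limit; the shorter window of Stra6 is not drawn. Dhrs3 lay above the limit under all of them, whereas Cyp26a1/Cyp26c1 and Crabp1 lay on both sides of it.

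Within the windows, anchors differed in length and in read ends. At Dhrs3, the anchor over the gene start was 1.604 kb long with 82 ends in ESC and 4.32 kb long with 409 ends in NCC. In NCC, an anchor upstream of it with 141 ends had no counterpart in ESC. At Cyp26a1/Cyp26c1, separate anchors over the starts of Cyp26c1 (563 ends) and Cyp26a1 (946 ends) in ESC were joined in NCC to 1 anchor of 15.9 kb with 1893 ends. This joined anchor holds both DR5.

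At Cyp26b1, 5 anchors in ESC that lay over the gene body and its downstream flank had 225 to 584 ends each. In NCC the same stretch was called as 3 anchors with 609, 1051 and 1338 ends, of which the one with 1051 ends holds the DR5. That anchor was 9.02 kb long, and the ESC anchor over the DR5 was 2.54 kb long with 320 ends. At Crabp2, 1 anchor over the whole gene had 1713 ends in ESC and 2229 in NCC, where an anchor with 519 ends downstream was called in addition. The start of Crabp1 held nearly the same in both, 406 and 399 ends, and that of Rdh10 as well, 194 and 202 ends. At Aldh1a2 the start had 242 and 228 ends.

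Along the chromosome, the neighbours of some loci differed from the loci themselves. Within 500 kb, none of 11 other genes around Cyp26a1/Cyp26c1 had a higher log2 ratio than the locus (0.72), and the median there was -0.07. None of 32 genes around Crabp2 (0.57) and none of 2 around Cyp26b1 (0.64) did either. Around Dhrs3 (1.57), 2 of 9 did, with Aadacl3 at 2.44 and a median of 0.43. At Rdh10 5 of 6 neighbours and at Aldh1a2 6 of 6 neighbours had a higher log2 ratio than the locus itself.

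**Figure D3:**
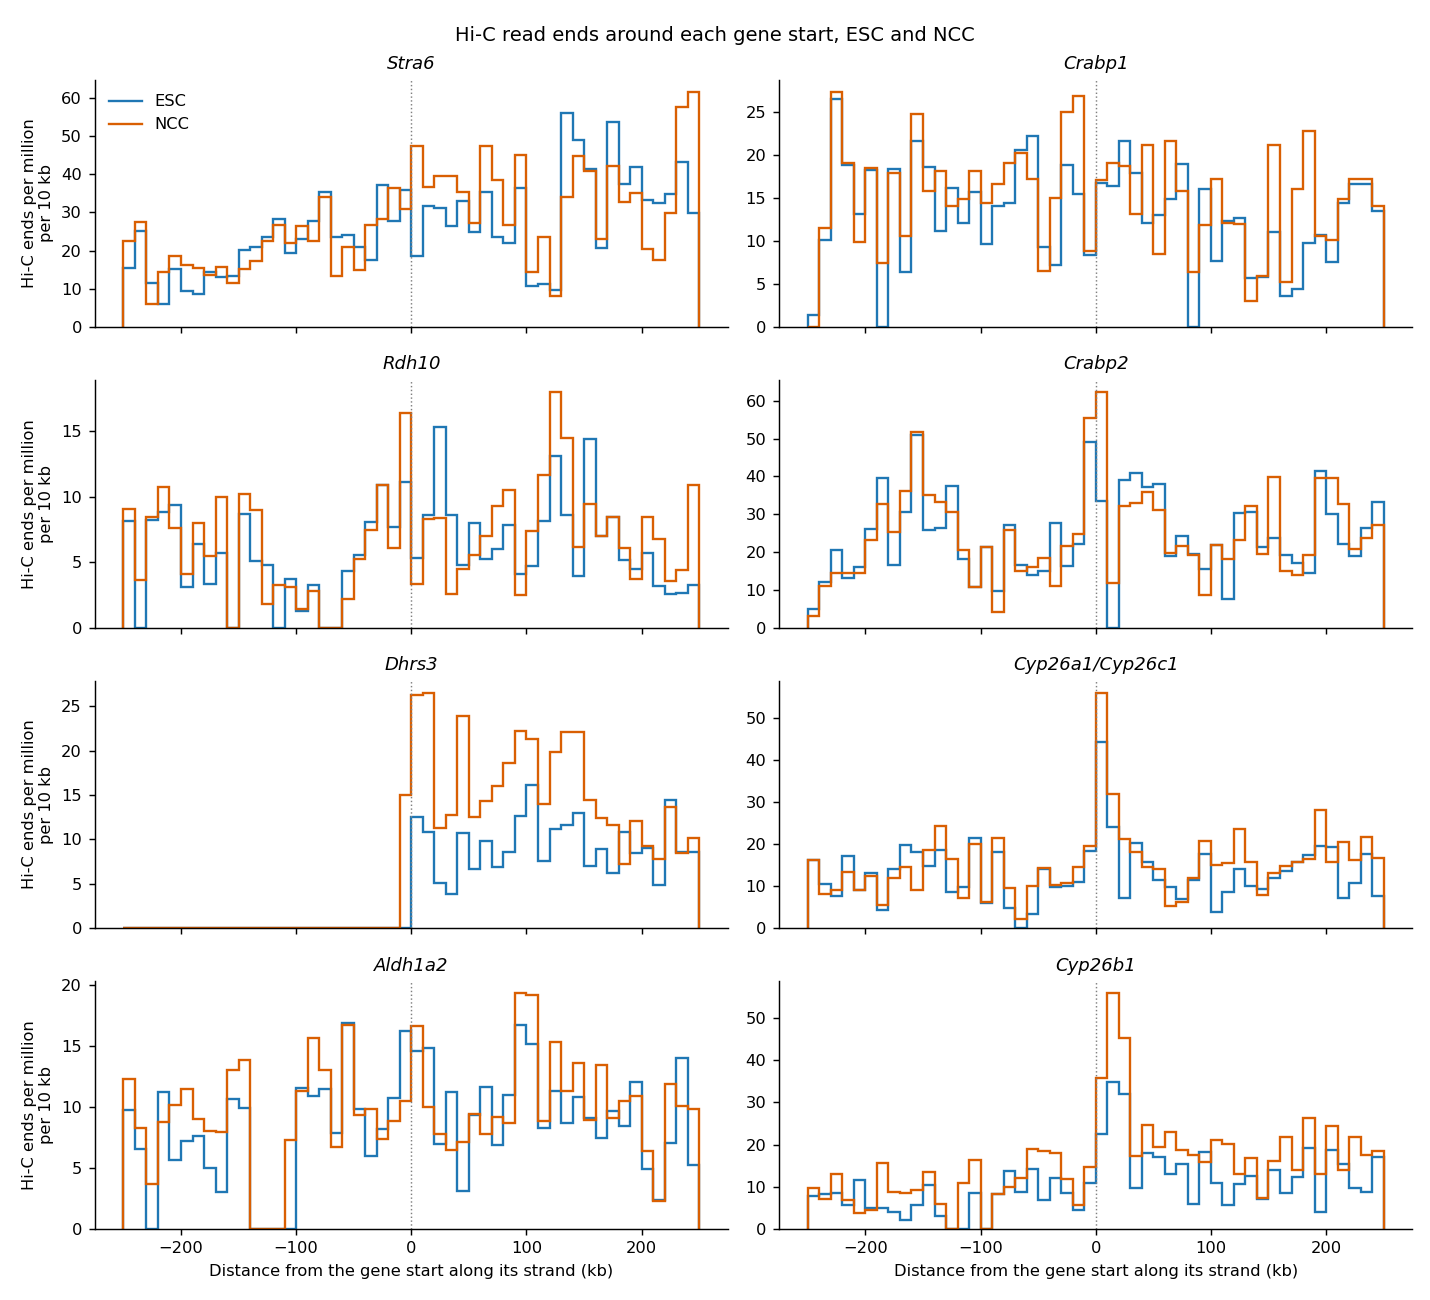
Normalised Hi-C read ends per 10 kb (vertical axis) along 250 kb on each side of the gene start (horizontal axis, downstream to the right; for the shared locus from the start of Cyp26c1), in ESC (blue) and NCC (orange), with ends spread evenly over their anchor. Cyp26b1 and Cyp26a1/Cyp26c1 peak at the gene in both cell types, and Dhrs3 has values downstream and none farther than 10 kb upstream.

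In FGFR1 HiChIP, 2 loci were higher in NCC and 2 were lower, where 24.4% of genes were higher and 36.5% lower. Cyp26a1/Cyp26c1 had 106 read pairs in ESC and 241 in NCC, a ratio of 1.89 (1.498 to 2.40), with covered lengths of 11.02 and 20.2 kb and a ratio per covered kb of 1.03. Dhrs3 had 50 and 110, a ratio of 1.83 (1.297 to 2.61), at nearly the same covered length of 11.4 and 11.5 kb and with 1.82 per covered kb. These 2 loci also had the largest Hi-C ratios. As a share of the loci they were near the 24.4% of all genes called higher, and agreement between the assays was not tested. Cyp26a1/Cyp26c1 stayed past the limit in 7 of 8 other ways of counting and Dhrs3 in 7 of 7. With identical anchors the ratios were 1.09 (0.702 to 1.69) at Cyp26a1/Cyp26c1 and 1.61 (0.873 to 3.09) at Dhrs3, with intervals that included 1.

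At the start of Cyp26a1, where the near DR5 lies, no FGFR1 anchor was called in ESC and 1 with 48 ends in NCC. At Dhrs3, the gene start and the DR5 each lay in an anchor with 22 ends in NCC, and in none in ESC. The far DR5 of Cyp26a1, the DR5 of Cyp26b1 and the DR2 of Crabp2 lay in no FGFR1 anchor in either cell type. The DR5 of Stra6 lay in an anchor of 46 ends in NCC and in none in ESC, and a DR2 of Stra6 in one of 220 ends in ESC and one of 65 ends in NCC. The start of Cyp26c1 lay in a NCC anchor of 100 ends, and in ESC the nearest anchor, with 39 ends, began downstream of that start.

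Crabp1 and Cyp26b1 were lower in FGFR1 HiChIP. Crabp1 had 116 read pairs in ESC and 72 in NCC, a ratio of 0.516 (0.379 to 0.698), with 7.05 and 5.65 kb covered and a ratio per covered kb of 0.643. Its anchor over the gene start had 44 ends in both cell types, and an anchor of 47 ends downstream was called in ESC but not in NCC. Cyp26b1 had 167 and 153, a ratio of 0.761 (0.607 to 0.954), with 14.7 and 11.9 kb covered and 0.939 per covered kb. It passed the limit in 5 of 8 other ways of counting, and with interactions of at least 2 read pairs its ratio was 1.11. Rdh10 (1.02), Aldh1a2 (0.857), Crabp2 (1.13) and Stra6 (0.955) did not pass the limit, and their intervals included 1. GENCODE starts Stra6 far upstream of its RefSeq start, and from the RefSeq start on, Stra6 had 163 and 365 read pairs in FGFR1 HiChIP, a ratio of 1.86 (1.54 to 2.25).

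In CTCF HiChIP, 7 loci had enough read pairs, of which 4 were higher and 1 was lower, where 30.9% of genes were higher and 31.7% lower. Crabp1 had 16 read pairs in ESC and 45 in NCC, a ratio of 3.24 (1.80 to 6.15), with 6.27 and 9.51 kb covered and 2.14 per covered kb. Dhrs3 had 34 and 51, a ratio of 1.73 (1.10 to 2.75), with 8.75 and 11.3 kb covered and 1.34 per covered kb. Cyp26b1 had 49 and 65, a ratio of 1.53 (1.04 to 2.26), with 10.3 and 11.4 kb covered and 1.39 per covered kb, and with the gene body alone its ratio was 0.887. Cyp26a1/Cyp26c1 had 85 and 96, a ratio of 1.302 (0.962 to 1.77) whose interval included 1, with 9.70 and 13.7 kb covered and 0.923 per covered kb.

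Stra6 was lower in CTCF HiChIP, with 289 read pairs in ESC and 195 in NCC, a ratio of 0.778 (0.645 to 0.936), 39.96 and 26.98 kb covered and 1.15 per covered kb. It lay past the limit in 4 of 9 other ways of counting, among them identical anchors, where it was higher, with a ratio of 1.41. From the RefSeq start its ratio was 0.863 (0.663 to 1.12). Rdh10 (56 and 40 read pairs, 0.824) and Aldh1a2 (140 and 119, 0.980) did not pass the limit. At Crabp2, 43 read pairs were counted in ESC, mostly from an anchor of 40 ends 7.55 kb upstream of the gene start, and no anchor was called in NCC. No fold is given for it, since the tables list only fragments that were called as anchors.

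**Figure D4:**
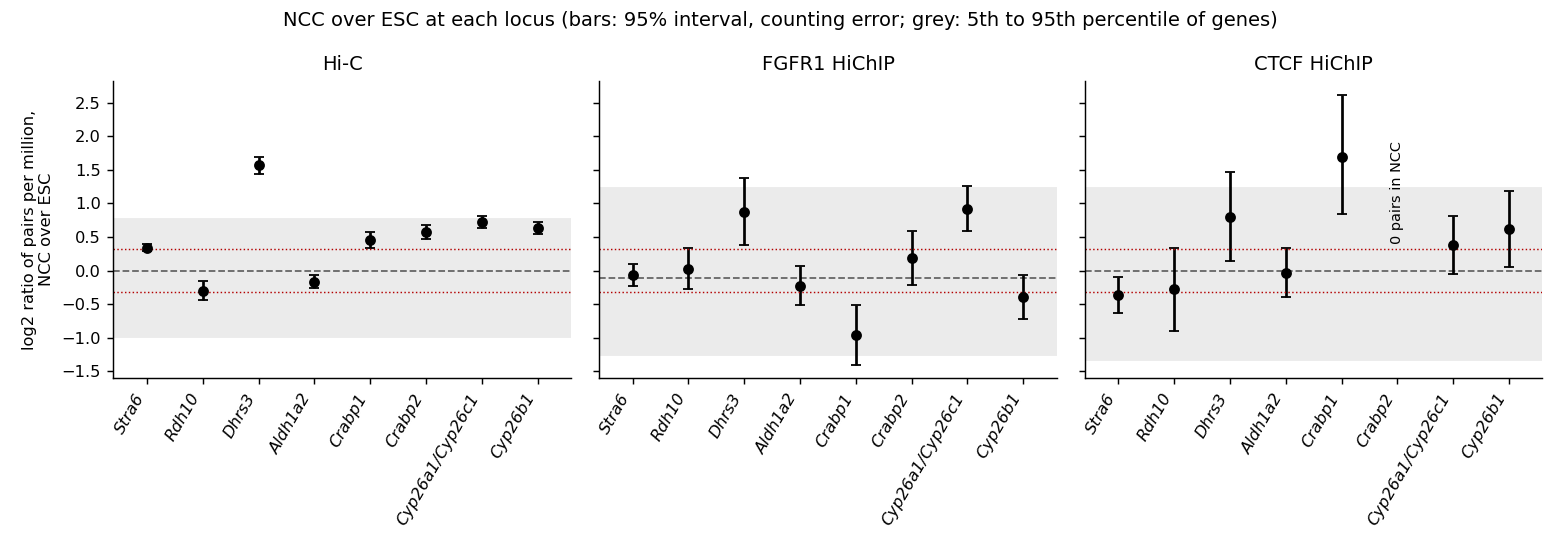
Log2 ratio of NCC over ESC in normalised read pairs (vertical axis) at each locus in Hi-C, FGFR1 HiChIP and CTCF HiChIP, with 95% intervals of counting error, the 5th to 95th percentile of all genes in grey, their median dashed and the limit dotted. Dhrs3 in Hi-C (1.57) and Crabp1 in CTCF HiChIP (1.70) lay above the grey range, and the other points drawn within it.

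HiChIP was then set over the Hi-C of the same cell type, to show which loci gave more FGFR1 or CTCF contacts than their contacts in general. Both comparisons of a cell type share its Hi-C library, and a locus with many Hi-C pairs lowers both. Rdh10 was the locus past the limit upwards for FGFR1. It had 60.8 normalised read pairs in FGFR1 HiChIP and 40.1 in Hi-C in ESC, a ratio of 1.52 (1.27 to 1.80), and 62.1 against 32.6 in NCC, a ratio of 1.90 (1.62 to 2.23). With 17.6 and 21.9 kb covered in ESC and 20.7 and 16.9 kb in NCC, its ratios per covered kb were 1.88 and 1.56. In ESC the ratio per covered kb was above 1 at all 8 loci, from 1.05 at Cyp26a1/Cyp26c1 to 2.01 at Aldh1a2, also at the 4 loci called lower. Called anchors added up to 577 Mb for FGFR1 and 928 Mb for Hi-C in ESC, and to 681 and 925 Mb in NCC. Over all anchors such a ratio is therefore above 1 too, and a value above 1 alone does not show an excess of FGFR1 contacts. Without regard to covered length, Rdh10 passed the limit upwards for FGFR1 in both cell types in all 6 other ways of counting.

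The remaining loci did not pass it upwards for FGFR1. In ESC 1 locus was higher and 4 were lower, where 21.0% of genes were higher and 46.8% lower. In NCC 1 was higher and 7 were lower, where 22.3% of genes were higher and 52.5% lower, and the median log2 ratio was -0.99 over the loci and -0.38 over the genes. Crabp1 had the lowest FGFR1 ratio in NCC, 0.334 (0.260 to 0.423), and 0.890 (0.728 to 1.08) in ESC. Dhrs3 had 0.616 in ESC and 0.381 in NCC, and Cyp26b1 0.784 and 0.384. FGFR1 anchors covered less of these windows than Hi-C anchors, and per covered kb the ratios in NCC were 0.758 at Crabp1, 0.976 at Dhrs3 and 0.974 at Cyp26b1. Over all anchors such a ratio is above 1, as given above, and these values lay below that level.

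For CTCF, Aldh1a2 was the locus past the limit upwards, with 115 normalised read pairs against 86.9 in Hi-C in ESC, a ratio of 1.32 (1.11 to 1.57), and with 113 against 77.4 in NCC, a ratio of 1.45 (1.197 to 1.75). CTCF anchors covered 27.2 kb of its window in ESC and 31.0 kb in NCC, against 61.1 and 52.3 kb in Hi-C, and per covered kb the ratios were 2.97 and 2.46. In ESC the ratio per covered kb was above 1 at 7 of 8 loci, among them Rdh10 (2.20), Cyp26a1/Cyp26c1 (2.10), Crabp2 (2.09) and Dhrs3 (2.04), and was 0.555 at Crabp1. All CTCF anchors added up to 438 Mb in ESC and those of Hi-C to 928 Mb. Such a ratio is thus above 1 over all anchors too, and a value above 1 alone does not show an excess. In ESC 1 locus was higher and 3 were lower, where 21.5% of genes were higher and 45.3% lower. In NCC 1 was higher and 6 were lower, Crabp2 with no anchor among them, where 23.9% of genes were higher and 46.9% lower. Crabp1 was the lowest of the loci in ESC, 0.268 (0.153 to 0.438), and had 0.633 (0.460 to 0.852) in NCC. Cyp26b1 had similar ratios in both, 0.503 and 0.495.

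Partners were sorted by their distance from the window. The Hi-C share of read pairs with a partner on another chromosome was larger in NCC at 7 of 8 loci, and the median of all genes moved the same way, from 12.7% to 14.6%. Dhrs3 was the exception, with 16.1% before and 14.8% after differentiation. With interactions of at least 2 read pairs, 2 loci had a higher share in NCC. The middle range set some loci apart. Partners from 100 to 250 kb made up 17.9% of the read pairs of Cyp26a1/Cyp26c1 in ESC and 19.7% in NCC, where the median gene had 10.2% and 9.6%. At Cyp26b1, those from 250 to 500 kb made up 13.98% and 14.9% against 6.7% and 6.2% in the median gene. Crabp2 had few partners farther than 1 Mb on its chromosome, 8.9% and 9.6% against 17.02% and 17.9%, and more pairs inside a single anchor, 25.6% and 24.8% against 13.3% and 12.5%.

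The side of the partners was least even at Dhrs3. Of its Hi-C partners within 1 Mb, 3.57% (1.95 to 6.45) lay upstream in ESC and 3.32% (2.26 to 4.86) in NCC, whereas the median gene had 49.5% in both. In the 1 Mb upstream, 22 anchors were called in ESC and 36 in NCC, which covered 6.64% and 11.6% of it, against 82 and 89 anchors downstream. That stretch has no unknown bases in GRCm38 and holds 23 protein-coding genes, among them Pramef12, Pramel4 and Oog2, of gene families with many copies. How well reads can be placed there was not tested.

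All 8 loci had most of their Hi-C partners downstream in both cell types. At the other 7 the upstream share ran from 31.9% at Cyp26b1 to 43.7% at Crabp1 in ESC, and from 34.8% to 45.2%, again at these genes, in NCC. These shares lay inside the 5th to 95th percentile of genes, 29.3% to 70.2% in ESC and 28.3% to 71.0% in NCC. How many of all genes leaned downstream in both cell types was not counted. At Crabp2 the share was 34.7% (31.3 to 38.2) in ESC and 41.1% (37.9 to 44.4) in NCC. In FGFR1 HiChIP, Cyp26b1 had 33.6% (25.4 to 43.0) upstream in ESC and 69.6% (59.5 to 78.0) in NCC, from 107 and 92 read pairs, while its Hi-C shares were 31.9% and 34.8%. Crabp1 had 54.0% (40.4 to 67.0) in ESC and 17.2% (7.6 to 34.5) in NCC in FGFR1 HiChIP, from 50 and 29 read pairs. Aldh1a2 had 35.2% (25.1 to 46.8) and 20.6% (12.7 to 31.6), with intervals that overlapped.

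Partners within 1 Mb were next counted in bins of 25 kb. Over the 8 loci, 138 bins at least 50 kb away held 20 or more Hi-C read pairs in both libraries together. Of these, 58 were higher in NCC past 1.5-fold and 16 were lower, where 17.8% of such bins of all genes were higher and 23.2% lower. Cyp26b1 gave 19 higher and 2 lower bins of 31, Cyp26a1/Cyp26c1 10 and 0 of 17, and Dhrs3 9 and 0 of 11. Stra6 gave 8 and 7 of 33, Aldh1a2 4 and 1 of 16, Crabp2 4 and 2 of 16, Crabp1 2 and 1 of 8, and Rdh10 2 and 3 of 6. The bins that were higher thus came for the most part from Dhrs3 and the CYP26 loci, and neighbouring bins of a locus are not independent.

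At Dhrs3, the strongest partner bin lay 50 to 75 kb downstream, with no gene start in it, and had 18 read pairs in ESC and 138 in NCC, a ratio of 7.49 (4.57 to 13.0). Relative to all partners of Dhrs3 within 1 Mb, the bin was still higher, with a ratio of shares of 2.85 (1.74 to 4.95). The bin from 75 to 100 kb had 24 and 98 read pairs and a ratio of shares of 1.52 (0.964 to 2.48). Farther out, the bin from 175 to 200 kb, nearest to the start of Vps13d, had 24 and 64 read pairs and 4.95 times the number that genes on average had at that distance. Its ratio of shares was 0.992 (0.612 to 1.66), so that it rose only as the locus did. From 250 to 500 kb downstream, where Vps13d, Tnfrsf1b and Tnfrsf8 start, the sum was 44 and 92, a ratio of 2.04 (1.41 to 2.997).

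At Cyp26a1/Cyp26c1, the bins with the most read pairs lay 150 to 200 kb downstream, toward Myof, which encodes a membrane repair protein of the ferlin family. The bin from 150 to 175 kb had 37 read pairs in ESC and 97 in NCC, a ratio of 2.56 (1.74 to 3.85), and the next, to 200 kb, 58 and 60, a ratio of 1.01 (0.693 to 1.48). These stood at 3.501 and 3.56 times the average of genes at their distance. As shares of all partners of the locus within 1 Mb, their ratios were 1.59 (1.08 to 2.40) and 0.629 (0.431 to 0.918). Between the gene and these bins, from 50 to 100 kb downstream, read pairs went from 32 to 111, a ratio of 3.39 (2.27 to 5.19), above 99.2% of genes. Beyond 250 kb downstream the ratio was 0.967 (0.714 to 1.31), so that the difference ended near that distance on this side.

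At Cyp26b1, the bin 450 to 475 kb downstream, toward Dysf, another ferlin gene, had 32 read pairs in ESC and 59 in NCC and stood at 7.35 times the average of genes, the highest of all the named bins. The bins with most read pairs were those from 50 to 75 kb downstream, with 33 and 76, and from 150 to 175 kb, with 27 and 66. Upstream, toward Exoc6b, which encodes a subunit of the exocyst, the sum from 100 to 250 kb went from 33 to 112, a ratio of 3.32 (2.23 to 5.05), and that from 250 to 500 kb from 67 to 159, a ratio of 2.32 (1.73 to 3.13). From 500 kb to 1 Mb the order turned, with 111 and 74 read pairs upstream, a ratio of 0.652 (0.479 to 0.882), and 78 and 65 downstream. Single bins of that range, at Emx1 and Vax2, were chosen after their values were seen. Emx1 and Vax2 encode homeobox factors of the forebrain and eye. The bin at Emx1, 575 to 600 kb upstream, had 22 and 4 read pairs. The bin at Vax2, 850 to 875 kb downstream, had 18 and 0, which is under the minimum of read pairs set for a partner bin. No interval is given for these bins, and a loss of contacts specific to these genes was not tested.

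**Figure D5:**
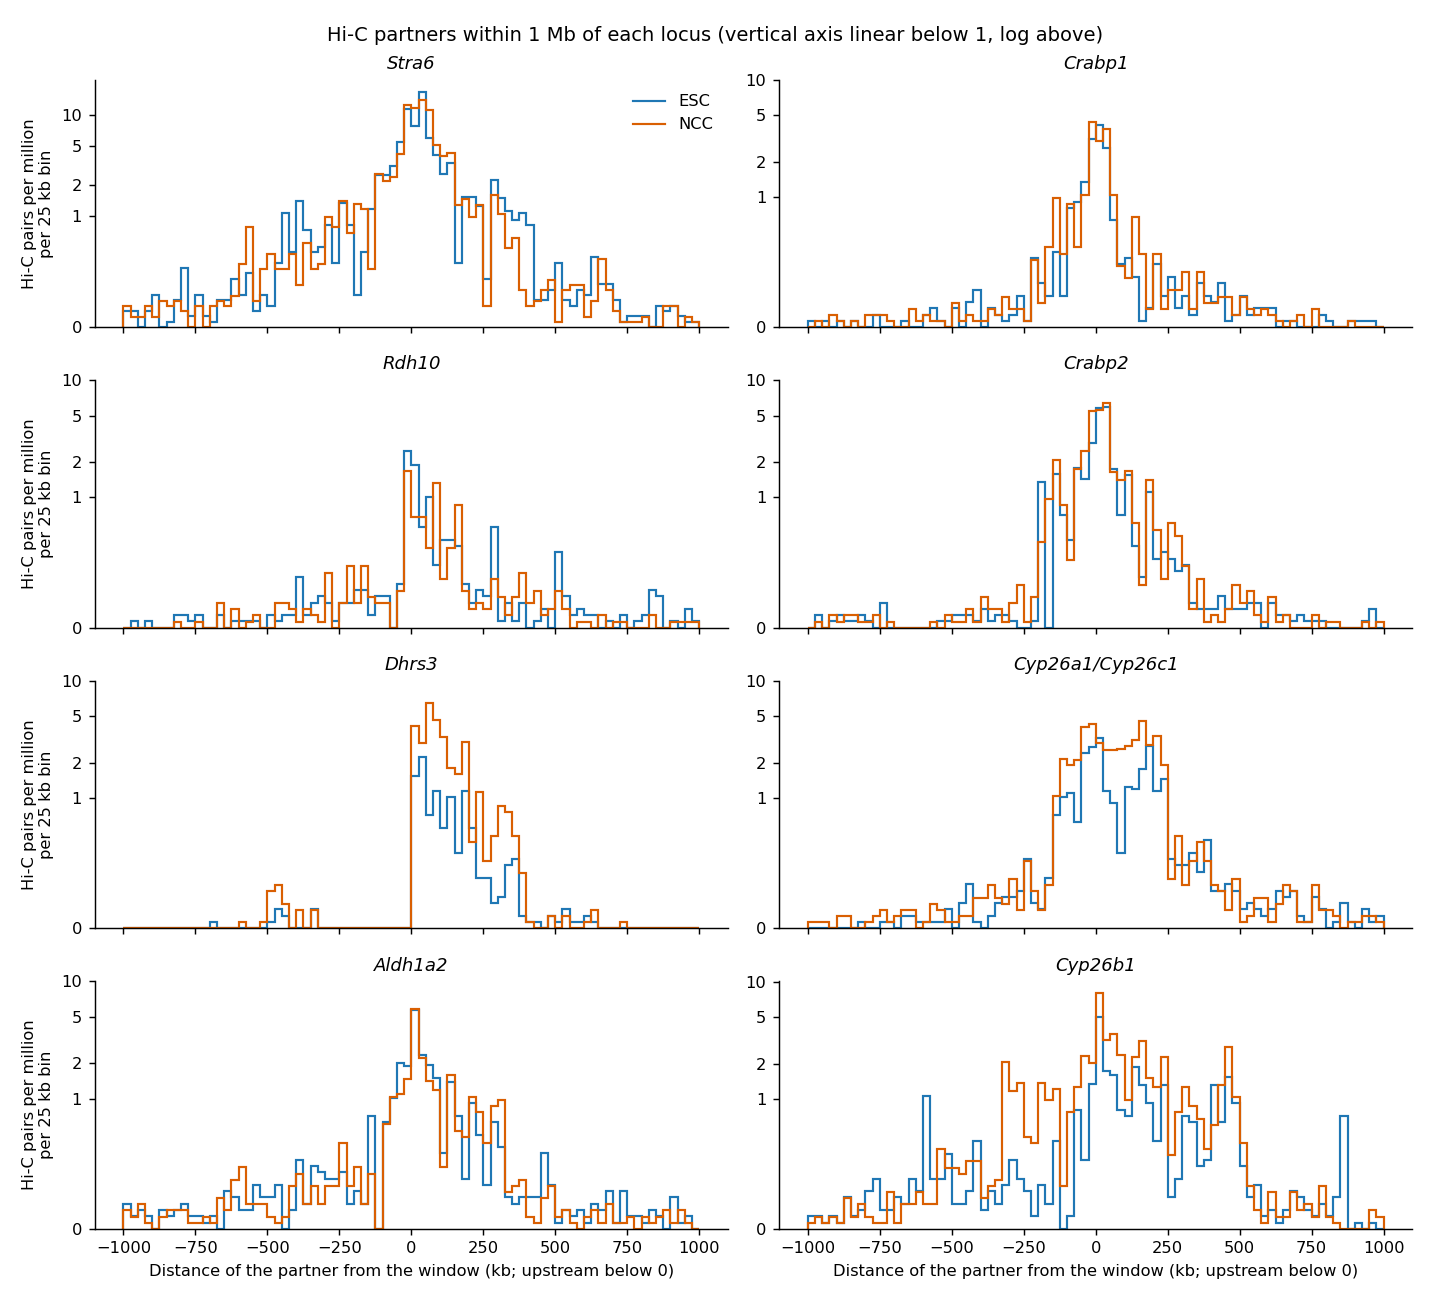
Normalised Hi-C read pairs per 25 kb bin of partner distance (vertical axis, linear below 1 and log above) within 1 Mb of each window (horizontal axis, upstream below 0), in ESC (blue) and NCC (orange). In most bins NCC lies above ESC downstream of Dhrs3, downstream of Cyp26a1/Cyp26c1 within 250 kb, and on both sides of Cyp26b1 within 500 kb.

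The remaining loci had differences in single bins and distance classes. The strongest bin of Stra6, 50 to 75 kb downstream near Islr2, had 124 read pairs in ESC and 238 in NCC, a ratio of 1.88 (1.503 to 2.35), and its next bin, at Pml and Stoml1, 84 and 107. From 250 to 500 kb downstream, Stra6 had 188 and 124, a ratio of 0.645 (0.510 to 0.813), which includes the named bin near Insyn1 with 47 and 34. Upstream of Crabp2, the first 50 kb went from 91 to 170, a ratio of 1.83 (1.41 to 2.38). Its bins at Prcc (37 and 37) and Mef2d (23 and 30) had intervals that included 1.

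Rdh10 was higher in the bin 75 to 100 kb downstream, with 10 and 28 read pairs, a ratio of 2.74 (1.29 to 6.31), and lower from 500 kb to 1 Mb downstream, with 48 and 21, a ratio of 0.428 (0.243 to 0.728). Its other named bins, from 50 to 75 kb (21 and 13), from 150 to 175 kb (13 and 20) and from 275 to 300 kb toward Stau2 (16 and 8), had intervals that included 1. So did the named bins of Aldh1a2, toward Polr2m (40 and 30, 29 and 34) and at Myzap (17 and 20, 13 and 21). Those of Crabp1, at Acsbg1 (19 and 20), near Ireb2 (17 and 22), at Sh2d7 (11 and 11) and near Chrna5 (10 and 12), did so as well. Aldh1a2 was lower in the first 50 kb upstream, with 81 and 54, a ratio of 0.652 (0.453 to 0.931).

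As a comparison, 31 other genes of retinoid metabolism, transport and reception were taken from a list. In Hi-C, 7 of the 31 were higher in NCC and 4 lower, near the background of 16.8% and 19.4%, and their median log2 ratio was -0.02. The higher ones included Rdh1 (1.44), Adh1 (1.40), Rbp7 (1.34), Aldh1a7 (1.33), Fabp5 (1.305) and Rdh12 (1.27). Among them, Fabp5 encodes a fatty acid carrier that also binds retinoic acid. The lower ones were Rlbp1 (0.730) and Aldh1a1 (0.674), a retinal dehydrogenase, and, from few read pairs, Rpe65 (168 and 62 read pairs, 0.361), the retinoid isomerase of the eye, and Rdh14 (230 and 71, 0.302). In FGFR1 HiChIP 12 of the 31 were higher and 13 lower, beside 24.4% and 36.5% of all genes. In CTCF HiChIP 13 of 28 with enough read pairs were higher and 4 lower, beside 30.9% and 31.7% of all genes.

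The pattern over the 6 libraries was set against that of other genes for the 3 loci with at least 50 read pairs in each library. Likeness was the Euclidean distance between log2 normalised read pairs, centred on their mean, and genes within 2 Mb were left out. Nearest to Cyp26a1/Cyp26c1 was Crebl2, at a distance of 0.33 among 8821 genes, nearest to Stra6 was Phactr3, at 0.16 among 8801, and nearest to Aldh1a2 was Gm37013, at 0.06 among 8813. The other 5 loci had under 50 read pairs in a CTCF HiChIP library and were not compared.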

How the data were processed

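The authors aligned reads of Hi-C, FGFR1 HiChIP and CTCF HiChIP to mm10 with HiC-Pro, called anchors in each library with hichipper and merged the 2 biological replicates. The deposited score of an interaction is a whole-number count of the read pairs that joined its anchors. The paper states that numbers of valid pairs were normalized between the cell types for comparisons. Whether the deposited scores carry that step was not tested. The build was checked on the sequence, where each anchor began at a GATC. Genes were those of GENCODE vM21, and at least 99.1% of the read pairs, on chromosomes 1 to 19 and X, were used.

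Read pairs with an anchor overlapping a gene plus 10 kb were counted in the same way for all genes and scaled to 1000000 read pairs of the library. Ratios have exact Clopper-Pearson 95% intervals and shares Wilson 95% intervals. With 1 pooled library per group, no p-value was computed. A ratio was called where one library was over 25% above the other with at least 50 read pairs in all, and a partner bin of 25 kb past 1.5-fold with at least 20. The precision follows the depth, 20745652 to 21228099 read pairs in Hi-C, 2662606 to 3203872 in FGFR1 HiChIP and 1056437 to 1218098 in CTCF HiChIP. The named genes were the 9 members, per locus the 2 partner bins at least 50 kb away with most read pairs and the 2 with the highest ratio to the mean of genes at that distance, named by the genes starting there or nearest, the listed pathway genes past the limit, and the gene of nearest pattern. A partner bin and a pathway gene that this rule names are not reported here. Emx1, Vax2, Exoc6b, Tnfrsf1b, Tnfrsf8, Aadacl3, Pramef12, Pramel4 and Oog2 lie outside this rule and were named after their values were seen. Members and lists were chosen with earlier results of these data known. Alternatives changed the window, the anchors counted, the scaling, the fold, the minimum score and the bins; those with ends spread over anchors, with identical anchors and with a shorter Stra6 were added after the data had been seen. Window counts and ratios were tested on simulated data. Python 3.11.15, numpy 2.4.6, pandas 2.3.3, scipy 1.17.1 and matplotlib 3.10.9 were used.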

Additional observations from a re-analysis of the deposited data

Results flagged for a closer look

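At 3 loci, NCC over ESC went in opposite directions in different assays, with intervals on opposite sides of 1. Cyp26b1 was higher in Hi-C (1.55) and CTCF HiChIP (1.53) and lower in FGFR1 HiChIP (0.761). Crabp1 was higher in Hi-C (1.37) and CTCF HiChIP (3.24) and lower in FGFR1 HiChIP (0.516). Stra6 was higher in Hi-C (1.27) and lower in CTCF HiChIP (0.778). The Hi-C call of Stra6 held in 4 of 9 other ways of counting. In CTCF HiChIP, Stra6 also lay past the limit in 4 of 9, but these include identical anchors, where it was higher (1.41). With scores of at least 2, Cyp26b1 was at 1.11 in FGFR1 HiChIP, and by anchor midpoints Crabp1 was at 1.03 in Hi-C. The differences between assays were not tested, and each rests on 1 pooled library per cell type.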

How the results depend on the processing

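No paired analysis was possible because the replicates are merged in each table, and for the same reason no replicate was left out. Of 354 locus ratios recomputed, 282 kept the call or the lack of one, 41 lost the call and 20 gained one. Another 11 turned direction with a call before or after. The 282 include ratios that crossed 1 without passing the limit either time, such as Aldh1a2 in Hi-C (0.892 and 1.17). The causes were not tested. Percentages in brackets below are the shares of all genes called in the same direction, and counts are of 8 loci unless given. With gene bodies alone, 3 loci were higher in NCC in Hi-C (20.3%), 1 of 7 lower in FGFR1 HiChIP (37.5%) and 1 of 5 higher in CTCF HiChIP (33%). In CTCF over Hi-C in ESC, 5 were lower (50.1%). Cyp26b1 turned to 0.887 in CTCF HiChIP, and Cyp26a1/Cyp26c1 to 1.07 in CTCF over Hi-C in NCC. With 25 kb on each side, 2 loci were higher in Hi-C (13.3%) and 2 lower in FGFR1 over Hi-C in ESC (43.8%). Crabp2 turned to 0.658 in FGFR1 HiChIP. By anchor midpoints, 3 were higher in Hi-C (17%) and 0 of 7 lower in CTCF HiChIP (31.8%). In CTCF over Hi-C in NCC, 2 were higher (26.5%), and there Cyp26a1/Cyp26c1 turned to 1.04 and Crabp1 to 1.36. With scores of at least 2, 1 of 7 was lower in FGFR1 HiChIP (40.6%) and 1 of 3 higher in CTCF HiChIP (35.1%). In CTCF over Hi-C, 2 were higher in ESC (20.4%) and 0 in NCC (23.9%). With these scores, Cyp26b1 turned to 1.11 and Aldh1a2 to 1.45 in FGFR1 HiChIP, and Dhrs3 to 1.64 in CTCF over Hi-C in ESC. Also, 2 loci then had a higher inter-chromosomal share in NCC. Scaled to intra-chromosomal pairs, 2 of 7 were lower in CTCF HiChIP (38.3%) and 2 higher in CTCF over Hi-C in ESC (28.6%). Without pairs inside 1 anchor, 1 was lower in Hi-C (18.6%). At a 1.5-fold limit, 3 were higher in Hi-C (7.5%), 1 lower in FGFR1 HiChIP (22.2%) and 0 of 7 lower in CTCF HiChIP (19.9%). In CTCF over Hi-C, 0 were then higher in either cell type (12.9% in ESC and 15.7% in NCC). Of the alternatives chosen after seeing the data, ends spread over anchors gave 3 lower in CTCF HiChIP (36.2%). Identical anchors gave 2 of 6 loci higher in Hi-C (3.15%) and 0 of 6 lower in FGFR1 HiChIP (40.2%). In CTCF HiChIP they left 2 loci, of which 2 were higher (23.2%) and 0 lower (17.6%). With them Aldh1a2 was at 1.32 in FGFR1 HiChIP and Stra6 at 1.41 in CTCF HiChIP. From its RefSeq start, Stra6 was at 1.86 in FGFR1 HiChIP and at 1.247 in Hi-C, where it no longer passed the limit. With the median of genes in place of their mean, the bin of highest ratio to it moved at Stra6 and was the same at the other 7 loci. In 50 kb bins, 36 of 113 partner bins were higher, beside 14.2% of such bins of all genes. Depth limits CTCF HiChIP most, with 16 to 289 read pairs per locus where anchors were called.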
